A study of Mus musculus with 6 samples.

Results

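The 10 genes described here encode checkpoint and costimulatory molecules of T cells, and they were taken by name, with earlier results of these data known: the PD-1 receptor gene Pdcd1 with its ligand genes Cd274 (PD-L1) and Pdcd1lg2 (PD-L2), the CD28 family genes Cd28, Ctla4 and Icos, and the inhibitory receptor genes Btla, Tigit, Lag3 and Havcr2 (TIM-3). All 10 were listed in the authors' gene-level table, and all 10 passed the filter on low counts, among 12925 genes tested of 35896 with transcripts in the files. The RNA was that of Th9 cultures, in which naive CD4+ T cells of C57BL/6 mice, 8 to 10 weeks old, were activated with antibodies to CD3 and CD28 and kept with IL-4, TGF-β and an antibody to IFN-γ for 48 h. WT samples (n = 3) came from Cul5fl/fl littermates without Cre, so that both groups carried the floxed allele, and Cul5 cKO samples (n = 3) from Cul5fl/fl CD4-Cre mice, in which exons 9 to 11 of Cul5, the scaffold of a cullin-RING ubiquitin ligase, are deleted. CD4-Cre is active from the CD4-expressing stage of thymic development, so it also acts in the CD8 lineage, and recombination takes place before the culture begins. The labels give a replicate number for each sample but do not say whether these were separate animals, so the p-values measure the spread between samples only.

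A T cell is activated when its antigen receptor is engaged together with CD28, which binds CD80 and CD86 and strengthens the signal. CTLA-4 takes up the same ligands with higher affinity and restrains the response, and ICOS is a related costimulatory receptor that appears after activation. PD-1, BTLA, TIGIT, LAG-3 and TIM-3 each limit the response when their ligands are present, and the PD-1 ligands PD-L1 and PD-L2 can be made by T cells themselves as well as by antigen-presenting cells.

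Between 23111689 and 23454552 estimated counts were obtained in 5 of the libraries, and 3944803 in WT replicate 3. Cul5 was measured at 64.4, 69.3 and 65.0 CPM (counts scaled to a common library total) in the WT replicates against 10.6, 14.2 and 13.1 CPM in those of Cul5 cKO, listed here and throughout in the order of replicates 1, 2 and 3, as the labels imply (log2 fold change -2.39, SE 0.115, edgeR's quasi-likelihood test, Benjamini-Hochberg adjusted p = 0.000992). The 7 markers of CD4+ T cells summed to 1538 to 1736 in WT and 1517 to 1675 CPM in Cul5 cKO, so the labelled cell type was found in every library. Replicate 1 of both genotypes stood apart from the other 4 samples: 26.8% of the genes tested lay outside the range of those 4 in both, which touches 7 of the 10 genes and is described with them. B cell markers (7 genes, 18.4 to 25.2 CPM in WT) reached 15.1, 16 and 60.4 CPM in the Cul5 cKO replicates, and myeloid and dendritic markers (11 genes, 6.88 to 12 CPM in WT) to 6.93, 23.6 and 7.48 CPM. Each of these markers had a count in at least 1 library. In Cul5 cKO replicate 1 the B cell marker Cd22 (7.97 CPM) and the dendritic cell marker Itgax (1.34 CPM) were above every WT value. The myeloid marker Lyz2 (0.0434 CPM) was within the WT range there.

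Pdcd1lg2 rose and Cd28 fell in Cul5 cKO cells, and the remaining 8 genes did not pass the test. That is 2 of 10 genes called at an adjusted p under 0.05, beside 1.03% of all genes tested (133 of 12925). The 10 genes were chosen with earlier results of these data known, so these shares are descriptions. By direction, 1 of 10 rose, beside 0.611% of all genes, and 1 of 10 fell, beside 0.418%. The same 2 genes were those whose samples did not overlap between the genotypes, a property shared by 27.5% of all genes tested. The median log2 fold change of the 10 genes was 0.35, with 6 values above 0 and 4 below, and that of all genes tested was -0.01. DESeq2 called 2 of 10 as well, beside 5.36% of all genes. RNA of a culture cannot tell fewer cells that express a gene from less RNA in each cell.

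**Figure D1:**
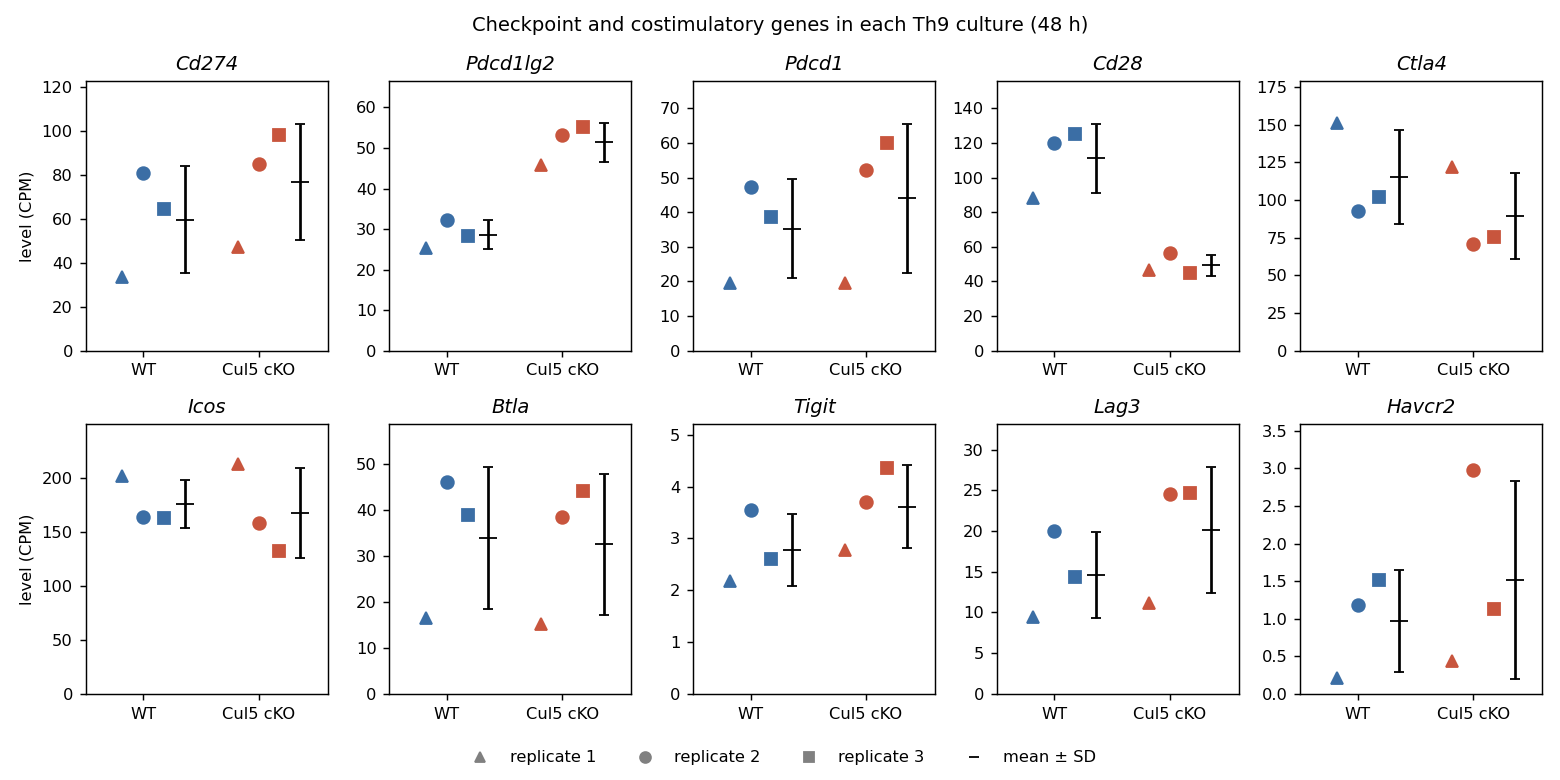
Level of each gene (CPM, y axis from 0) in the 3 WT (blue) and 3 Cul5 cKO (red) samples, with the replicate number as the symbol and the mean ± SD in black. Pdcd1lg2 and Cd28 separate by genotype, whereas in Pdcd1, Cd274, Btla, Lag3 and Havcr2 both replicate 1 samples (triangles) lie below the other 4.

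The ligand genes of PD-1 lie next to each other on chromosome 19 of GRCm38, with Cd274 at chr19:29367455-29388095 and Pdcd1lg2 at chr19:29410919-29471161, both on the plus strand and 22.8 kb apart. Their promoters are shown because Pdcd1lg2 was called and Cd274 is its neighbour, and because IL-4, present in the cultures, signals through STAT6. Each sequence covers 250 bases before and 50 after the RefSeq start site (GRCm38.p6, plus strand), at chr19:29410669-29410968 for Pdcd1lg2 and chr19:29367188-29367487 for Cd274, and capitals mark a match to the STAT6 letters TTCNNNNGAA.
Pdcd1lg2: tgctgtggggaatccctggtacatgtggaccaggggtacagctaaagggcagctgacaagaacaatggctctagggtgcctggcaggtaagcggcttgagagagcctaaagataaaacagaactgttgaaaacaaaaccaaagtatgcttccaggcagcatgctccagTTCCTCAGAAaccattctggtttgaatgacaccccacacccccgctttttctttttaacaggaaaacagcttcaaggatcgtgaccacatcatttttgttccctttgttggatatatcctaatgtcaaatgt
Cd274: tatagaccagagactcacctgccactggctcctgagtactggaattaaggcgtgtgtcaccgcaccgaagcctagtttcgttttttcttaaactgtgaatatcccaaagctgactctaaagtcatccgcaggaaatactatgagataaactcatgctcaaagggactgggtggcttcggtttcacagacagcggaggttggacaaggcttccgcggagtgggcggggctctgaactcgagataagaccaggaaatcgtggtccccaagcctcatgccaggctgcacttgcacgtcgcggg
The match TTCCTCAGAA begins 82 bases before the start site of Pdcd1lg2, and the Cd274 window holds none. RefSeq promoters were at hand for 7 of the 10 genes (not for Cd28, Icos and Lag3), and Pdcd1lg2 was 1 of 7 with these letters, which 6.95% of 32851 mouse promoters of the same length hold. On both strands, the shorter STAT spacing TTCNNNGAA was in 0 of 7 (8.3% of all promoters), the AP-1 letters TGANTCA in 1 of 7, Havcr2 (7.81%), the interferon response letters GAAANNGAAA in 0 of 7 (3.44%) and the NFAT core GGAAA in 5 of 7 (61.3%). Such a match is a run of letters and does not show that a factor binds there.

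Pdcd1lg2, the gene for PD-L2, was measured at 25.3, 32.3 and 28.3 in WT replicates 1, 2 and 3 against 45.9, 53.1 and 55.2 CPM in Cul5 cKO replicates 1, 2 and 3. Every Cul5 cKO sample was above every WT sample, and the spread within a genotype was small (28.6 ± 3.51 against 51.4 ± 4.84 CPM, mean ± SD, n = 3 each). The increase was 1.79-fold (log2 fold change 0.84, SE 0.116, 95% interval 0.57 to 1.11, edgeR's quasi-likelihood test, adjusted p = 0.0249), and the two-sided exact permutation test gave p = 0.1, the smallest that 3 samples against 3 allow. In the authors' gene-level table its log2 CPM was 4.77, 5.09 and 4.90 in WT and 5.62, 5.83 and 5.84 in Cul5 cKO, which limma put at a log2 fold change of 0.84 with an adjusted p of 0.0513. Leaving out WT replicate 2 or WT replicate 3 raised edgeR's adjusted p to 0.0771 or 0.126, and leaving out Cul5 cKO replicate 2 or Cul5 cKO replicate 3 raised it to 0.0916 or 0.141, with log2 fold changes of 0.96, 0.84, 0.82 and 0.79. In the same order, these fits called 2, 2, 45 and 3 genes of the whole table, against 133 with all 6 samples. Replicates 2 and 3 alone gave 0.81 (edgeR, adjusted p = 0.0127). PD-L2 is also made by myeloid cells and some B cells. In Cul5 cKO replicates 1, 2 and 3 the B cell markers summed to 15.1, 16 and 60.4 CPM and the myeloid and dendritic markers to 6.93, 23.6 and 7.48 CPM. In WT the B cell markers summed to 18.4 to 25.2 CPM and the myeloid and dendritic markers to 6.88 to 12 CPM. The part of such cells in the level of Pdcd1lg2 was not tested.

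Cd274, the gene for PD-L1, was at 33.4, 81.2 and 64.8 in WT and 47.2, 85.1 and 98.3 CPM in Cul5 cKO. Its genotypes overlapped, since replicate 1 was lowest in both, and the difference (log2 fold change 0.37, 95% interval -0.48 to 1.23) did not pass the test (edgeR, adjusted p = 0.596). With a term for replicate 1 the log2 fold change of Cd274 was 0.36 with an adjusted p of 0.0490 (edgeR), and with replicates 2 and 3 alone it was 0.30 with an adjusted p of 0.149. Per length, Pdcd1lg2 stood to Cd274 in a TPM ratio of 1.8, 0.941 and 1.05 in WT and 2.3, 1.48 and 1.32 in Cul5 cKO, and these ranges overlapped (exact permutation test, two-sided, p = 0.4). Of the 31-base stretches of Cd274, 14.6% recur in other genes, most often in AC119228.1, an antisense gene that lies within it. Whether the libraries kept the strand is not given in the sources used here, so reads of the antisense gene cannot be told apart from those of Cd274, whereas 0 of the 1931 such stretches of Pdcd1lg2 recur in another gene, the antisense gene A930007I19Rik that overlaps its end included.

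Pdcd1, which encodes their receptor PD-1, was at 19.6, 47.4 and 38.7 in WT and 19.6, 52.3 and 60.0 CPM in Cul5 cKO. Replicate 1 had the same level in both genotypes and was the lowest in each, while both other Cul5 cKO samples were above both other WT samples. The difference in Pdcd1 (log2 fold change 0.33, 95% interval -0.73 to 1.40) did not pass the test (edgeR, adjusted p = 0.711), nor did that of replicates 2 and 3 alone (0.35, adjusted p = 0.104).

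Cd28, the receptor that the activating antibody engages, was at 88.2, 120 and 125 in WT replicates 1, 2 and 3 against 46.4, 56.3 and 45.0 CPM in Cul5 cKO replicates 1, 2 and 3. The groups did not overlap (111 ± 20.0 against 49.2 ± 6.13 CPM, mean ± SD, n = 3 each), and the highest Cul5 cKO sample was below the lowest WT sample. Cd28 was 2.24-fold lower in Cul5 cKO (log2 fold change -1.17, SE 0.150, 95% interval -1.52 to -0.82, edgeR's quasi-likelihood test, adjusted p = 0.0205; exact permutation test, two-sided, p = 0.1, the smallest possible). The authors' gene-level table gave 6.58, 7.05 and 7.02 log2 in WT and 5.65, 5.92 and 5.60 in Cul5 cKO, for which limma found a log2 fold change of -1.16 (adjusted p = 0.0425). In edgeR's fit of Cd28, removal of WT replicate 2 or WT replicate 3 raised the adjusted p to 0.105 or 0.1, and removal of Cul5 cKO replicate 1 or Cul5 cKO replicate 3 to 0.051 or 0.136, while the log2 fold changes were -1.10, -1.08, -1.12 and -1.10. With replicates 2 and 3 alone it was -1.27 (edgeR, adjusted p = 0.00798).

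Ctla4, the inhibitory counterpart of Cd28, was at 151, 92.4 and 102 in WT and 122, 70.8 and 75.3 CPM in Cul5 cKO. In both genotypes replicate 1 was the highest, and the genotypes overlapped. The log2 fold change of Ctla4 was -0.37 (95% interval -0.96 to 0.23, edgeR, adjusted p = 0.449). Among replicates 2 and 3 alone both Cul5 cKO samples were below both WT samples, at a log2 fold change of -0.40 (edgeR, adjusted p = 0.0336), and a term for replicate 1 gave -0.36 with an adjusted p of 0.0145. Under these settings 3 of 10 and 4 of 10 of the genes passed, beside 8.83% and 13.1% of all genes, so more of the whole table passed as well.

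Icos was at 202, 164 and 163 in WT and 213, 158 and 132 CPM in Cul5 cKO. Its genotypes overlapped, with a log2 fold change of -0.08 (95% interval -0.49 to 0.33, edgeR, adjusted p = 0.832), and the interval does not reach the change of Cd28. The 3 genes form a cluster on chromosome 1, all on the plus strand: Cd28 at chr1:60716800-60773359, Ctla4 at chr1:60887000-60915832 and Icos at chr1:60977927-61000320, 114 kb and 62.1 kb apart. Per length, Cd28 stood to Icos in a TPM ratio of 0.320, 0.526 and 0.521 in WT and 0.158, 0.254 and 0.248 in Cul5 cKO, without overlap (exact permutation test, two-sided, p = 0.1, the smallest possible). The ratio of Cd28 to Ctla4 was 0.194, 0.430 and 0.390 in WT and 0.122, 0.258 and 0.190 in Cul5 cKO, in which replicate 1 of WT overlapped the Cul5 cKO range (p = 0.2, exact permutation test).

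**Figure D2:**
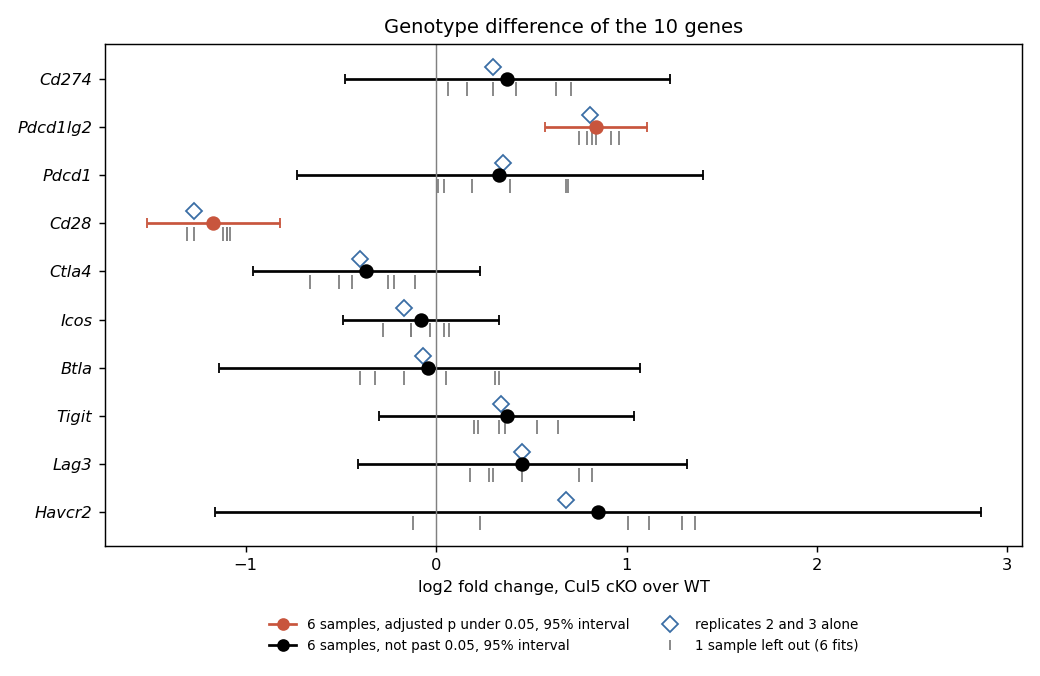
Log2 fold change (Cul5 cKO over WT) of each gene with its 95% interval from edgeR (red, adjusted p under 0.05), beside the value in replicates 2 and 3 alone (diamonds) and with each sample left out (ticks). Pdcd1lg2 stays between 0.75 and 0.96 and Cd28 between -1.31 and -1.08 when a sample is left out, whereas the ticks of Btla, Icos and Havcr2 fall on both sides of 0.

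Of the other inhibitory receptors, Btla, which binds the TNF receptor family member HVEM, was at 16.6, 46.2 and 39.0 in WT and 15.2, 38.6 and 44.1 CPM in Cul5 cKO. The genotypes covered nearly the same range (log2 fold change -0.04, 95% interval -1.14 to 1.07, edgeR, adjusted p = 0.976). Lag3, whose product binds MHC class II, was at 9.48, 20.0 and 14.4 in WT and 11.2, 24.5 and 24.7 CPM in Cul5 cKO. Its difference of 0.45 on the log2 scale (95% interval -0.41 to 1.32) did not pass the test (edgeR, adjusted p = 0.517), nor in replicates 2 and 3 alone (0.45, adjusted p = 0.0991), where both Cul5 cKO samples were above both WT samples. Tigit, a receptor for the poliovirus receptor Pvr, was low, at 2.18, 3.55 and 2.61 in WT and 2.77, 3.70 and 4.36 CPM in Cul5 cKO, the WT replicate 3 value resting on 10.3 counts. The genotypes overlapped in Tigit too (log2 fold change 0.37, 95% interval -0.30 to 1.04, edgeR, adjusted p = 0.494).

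Havcr2 was the lowest of the 10, at 0.216, 1.18 and 1.52 in WT and 0.434, 2.98 and 1.13 CPM in Cul5 cKO. These rest on 5.05, 27.3 and 6 counts in WT and 10, 68 and 25.5 counts in Cul5 cKO, and 3 counts, taken as the floor, amount to 0.759 CPM in the shallow WT replicate 3 and to 0.128 to 0.133 CPM elsewhere. The difference in Havcr2 did not pass the test (log2 fold change 0.85, 95% interval -1.16 to 2.86, edgeR, adjusted p = 0.607). The Cul5 cKO samples spanned a 6.86-fold range. Without Cul5 cKO replicate 2, the library with the highest myeloid marker sum, the log2 fold change of Havcr2 was -0.12. The part of myeloid cells in that value was not tested.

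Replicate 1 of both genotypes lay at an end of the range in most of these genes. In 5 of the 10 genes (Pdcd1, Cd274, Btla, Lag3 and Havcr2) both replicate 1 samples were below the other 4, beside 12.2% of all genes tested, and in 2 (Ctla4 and Icos) both were above them, beside 14.6%. Btla was 2.64-fold, Pdcd1 2.53-fold, Cd274 2.04-fold, Lag3 2.03-fold and Havcr2 5.24-fold higher in the mean of the other 4 samples than in replicate 1, and these ratios exceed the genotype fold of each of these genes. Ctla4 was 1.6-fold and Icos 1.34-fold higher in replicate 1. Pdcd1lg2, Cd28 and Tigit had at least 1 replicate 1 sample within the range of the others, and the fold between replicate 1 and the rest was 1.19, 1.29 and 1.44. Among the transcription factors listed with these genes, Nr4a1, an immediate early gene of antigen receptor signalling, was at 19.1 and 23.3 CPM in replicate 1 of WT and Cul5 cKO against 179 to 256 CPM in the other 4, a gene chosen after its values were seen. What distinguished replicate 1 is not given in the labels, and its part in these levels was not tested.

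**Figure D3:**
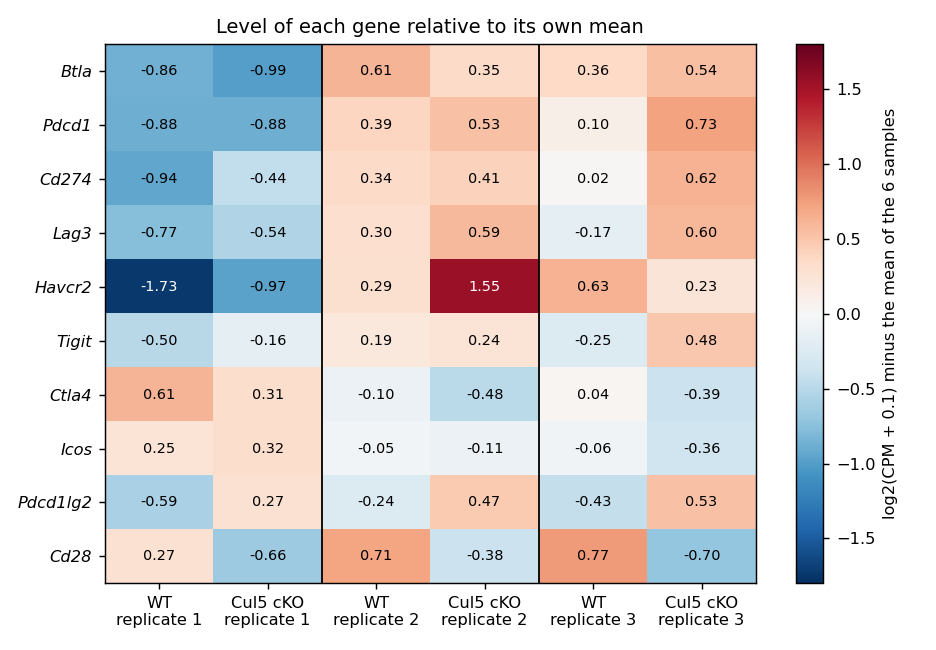
Log2(CPM + 0.1) of each gene minus its mean over the 6 samples, with columns ordered by replicate number. Both replicate 1 columns are blue (low) from Btla down to Tigit and red (high) for Ctla4 and Icos, while Pdcd1lg2 and Cd28 alternate with genotype.

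Levels between genes were compared in TPM, which are scaled to transcript length. In WT the order by mean TPM ran from Ctla4 (117 ± 29.4, SD) and Icos (82.5 ± 7.84) through Cd28 (37.0 ± 6.80), Pdcd1 (28.0 ± 11.9), Pdcd1lg2 (27.1 ± 4.16), Cd274 (23.9 ± 10.3), Btla (17.4 ± 8.74) and Lag3 (12.7 ± 4.96) to Tigit (5.4 ± 1.52) and Havcr2 (0.545 ± 0.382). The ranges of neighbours in this order overlapped from Cd28 down to Lag3, so that part of the order is not resolved by 3 samples, and they did not overlap between Ctla4, Icos and Cd28 at the top or between Lag3, Tigit and Havcr2 at the bottom. In Cul5 cKO, Pdcd1lg2 ranked 3 (48.1 ± 3.84 TPM), below Icos (77.0 ± 20.1) without overlap, and Cd28 ranked 7 (16.3 ± 2.09), between Btla (17 ± 7.98) and Lag3 (15.7 ± 5.51), with which it overlapped. Ctla4 (92.1 ± 30.5 TPM) and Icos overlapped in Cul5 cKO. Thus Cd28 was above Pdcd1lg2 by mean TPM in WT and below it in Cul5 cKO, where the lowest Pdcd1lg2 sample (43.7 TPM) was above the highest Cd28 sample (18.6 TPM).

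**Figure D4:**
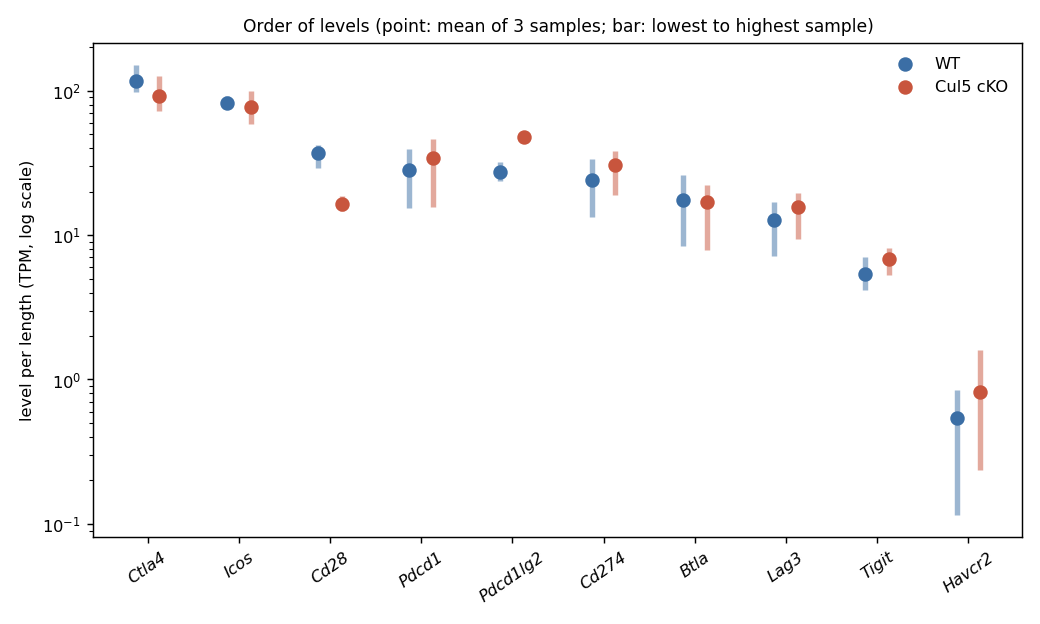
Mean (points) and range of 3 samples (bars) of the level per length of each gene (TPM, log scale) in WT (blue) and Cul5 cKO (red), in the WT order. Cd28 and Pdcd1lg2 are the genes whose WT and Cul5 cKO bars do not overlap, and Cd28 goes from 37.0 to 16.3 TPM while Pdcd1lg2 goes from 27.1 to 48.1 TPM.

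The annotation lists 20 transcripts of the 10 genes, and 15 passed the filter. In Pdcd1lg2 the transcript Pdcd1lg2-201 held 96.4% to 100% of the gene's counts in every sample, and in Cd28 the transcript Cd28-201 held 98.6% to 99.4%, so the gene values above are those of these transcripts. Ctla4-201 held 87.2% to 89.6% and the non-coding Ctla4-203 held 10.4% to 12.5% of Ctla4 counts, and Btla-202 held 83.5% to 93.1% of Btla counts. In Havcr2, kallisto placed all counts of WT replicate 3 on Havcr2-202 and at least 96.6% of those of the other samples on Havcr2-201, at the low counts given above. Of the 15 transcripts, 0 passed edgeR's test, beside 0.00% of the 39572 transcripts tested. By the same test 3 had an unadjusted p under 0.05, beside 6.60% of all: Pdcd1lg2-201 (log2 fold change 0.88), Cd28-201 (-1.12) and the retained-intron transcript Cd28-203 (-1.62). DESeq2 called 2 of the 15 and 376 of the 39572 transcripts.

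The genes beside the clusters were read from the same fit. Upstream of Cd274, Plgrkt was at 39.9 ± 1.98 in WT and 36.2 ± 1.28 CPM in Cul5 cKO (log2 fold change -0.13, edgeR, adjusted p = 0.334), and downstream of Pdcd1lg2, Ric1 was at 71.7 ± 11.1 and 75.6 ± 6.21 CPM (0.08, adjusted p = 0.758). Neither passed the test, so of the 4 protein-coding genes in this stretch Pdcd1lg2 was the one called. On chromosome 1, the protein-coding genes on either side of the cluster were Raph1 (log2 fold change -0.15, edgeR, adjusted p = 0.565) and Pard3b (0.84, adjusted p = 0.186), the latter at 0.928 ± 0.201 in WT and 1.62 ± 0.257 CPM in Cul5 cKO. The pseudogenes Eif4a-ps4, next to Cd28, and Rpl18-ps1, which lies within Ctla4 on the same strand, had log2 fold changes of -0.10 and -0.20, and reads of such copies can be shared with their parent genes. The pseudogenes Gm11609, Gm11581 and Gm11582 in this stretch had at most 0.0434 CPM in any sample.

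Related genes were taken from 4 lists of binding partners, other receptors, signalling and trafficking proteins, and transcription factors, 75 genes in all, of which 72 were tested. Lair1 and Maf rose (2 of 72, beside 0.611% of all genes tested), and 0 of 72 fell in edgeR (beside 0.418%). At an unadjusted p under 0.05 in edgeR, 9 of 72 were higher and 13 lower, beside 1415 and 1338 of all 12925 genes tested. The counts in each direction changed with the setting. With DESeq2 4 were higher and 4 lower, beside 361 and 332 of all 12925 genes. In replicates 2 and 3 alone 5 were higher and 8 lower, beside 572 and 581 of 13055. The counts were 10 and 12 with a term for replicate 1, beside 927 and 761 of 12925. With the replicate number as a block they were 4 and 10, beside 453 and 395 of 12925. Lair1, an inhibitory receptor for collagen, was at 51.3, 44.3 and 42.5 in WT and 85.4, 80.4 and 95.9 CPM in Cul5 cKO, without overlap (log2 fold change 0.91, SE 0.1, edgeR, adjusted p = 0.0159). Maf, a transcription factor of helper T cells, was at 25.3, 34.4 and 35.4 in WT and 61.9, 66.5 and 69.5 CPM in Cul5 cKO, also without overlap (1.07, SE 0.131, edgeR, adjusted p = 0.0185). Both lost the call without WT replicate 2 (adjusted p = 0.0885 and 0.0771 in edgeR), WT replicate 3 (0.0816 for both) or Cul5 cKO replicate 3 (0.0801 and 0.104), and Maf also without Cul5 cKO replicate 2 (0.0688). Those fits called 2, 2, 3 and 45 genes of the whole table in that order, against 133 with all 6 samples.

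Among the 15 binding partners 0 were called in either direction, and the median log2 fold change was -0.23. Cd86, a ligand of CD28 and CTLA-4 that antigen-presenting cells also carry, was at 1.24, 1.34 and 1.52 in WT and 4.21, 2.59 and 3.11 CPM in Cul5 cKO, without overlap. It did not pass the test (log2 fold change 1.30, 95% interval 0.64 to 1.97, edgeR, adjusted p = 0.0818), whereas DESeq2 gave an adjusted p of 0.0333 and edgeR with a term for replicate 1 one of 0.0255. Its log2 fold change was smaller with counts scaled from TPM (0.64, edgeR, adjusted p = 0.555) and in limma on the authors' log2 CPM (0.59, adjusted p = 0.563), log2(TPM + 1) (0.36, adjusted p = 0.596) and log2(TPM + 0.1) (0.57, adjusted p = 0.575). The highest Cd86 value was in Cul5 cKO replicate 1, where the B cell and myeloid marker sums were 15.1 and 6.93 CPM and Cd22 and Itgax were above every WT value. The part of antigen-presenting cells in it was not tested. The galectin gene Lgals3 was at 52.2, 48.1 and 52.4 in WT and 23.1, 45.6 and 20.9 CPM in Cul5 cKO (log2 fold change -0.76, edgeR, adjusted p = 0.184). Its high Cul5 cKO sample is replicate 2, the library with the high myeloid marker sum, and without it the log2 fold change was -1.20 (edgeR, adjusted p = 0.0211). Lgals3 passed there and with DESeq2 (adjusted p = 0.0409), which are 2 of 18 alternatives. The part of myeloid cells was not tested. Ceacam1, a partner of TIM-3, was at 4.30 ± 0.871 in WT and 2.76 ± 0.402 CPM in Cul5 cKO (log2 fold change -0.67, edgeR, adjusted p = 0.168).

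Of the 17 other receptors tested, Lair1 was called and the median log2 fold change was -0.06. Cd226, the activating receptor that shares the ligand Pvr with TIGIT, was at 21.3, 29.1 and 31.4 in WT and 13.3, 13.5 and 16.5 CPM in Cul5 cKO. Those groups did not overlap, but the log2 fold change of -0.90 missed the threshold (95% interval -1.29 to -0.51, edgeR, adjusted p = 0.0622). Cd226 passed in 7 of 18 alternatives. With a sample left out it passed only without WT replicate 1 (-1.06, edgeR, adjusted p = 0.0290). That fit called 316 genes of the whole table, against 133 with all 6 samples. The authors' gene-level table gave 0.09 for Cd226 (limma, adjusted p = 0.979), and the cause of that difference was not tested. Cd7 was low, at 1.02, 1.73 and 2.78 in WT and 0.261, 0.394 and 0.356 CPM in Cul5 cKO (log2 fold change -2.30, edgeR, adjusted p = 0.0687). It passed in 5 of 16 alternatives, and with a sample left out only without WT replicate 1 (-2.64, edgeR, adjusted p = 0.0405).

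The 21 signalling and trafficking genes, which include the phosphatases and kinases that bind the tails of these receptors, centred on a log2 fold change of 0.01 (median), and 0 were called. The kinase gene Akt1 was at 302 ± 5.96 in WT and 362 ± 6.28 CPM in Cul5 cKO (log2 fold change 0.26, edgeR, adjusted p = 0.0694). Cmtm6, whose product protects PD-L1 from degradation, was at 206 ± 7.83 and 246 ± 16.0 CPM (0.25, adjusted p = 0.114), and the phosphatase scaffold gene Ppp2r1a at 335 ± 7.41 and 384 ± 16.9 CPM (0.19, adjusted p = 0.133). These were small differences with little spread, and none of the 3 passed in this fit. Akt1 passed with DESeq2 (adjusted p = 0.00626), in replicates 2 and 3 alone (edgeR, 0.0439) and with a term for replicate 1 (edgeR, 0.0189). With that term Cmtm6 (edgeR, adjusted p = 0.0417) and Ppp2r1a (0.0410) passed too, beside 13.1% of all genes. The log2 fold change of Ppp2r1a was 0.04 in limma on either TPM scale (adjusted p = 0.842 and 0.843). The 19 transcription factors had a median of 0.07, and Maf was the called gene. Batf was at 29.4 ± 3.04 in WT and 38.6 ± 3.13 CPM in Cul5 cKO (log2 fold change 0.39, edgeR, adjusted p = 0.112) and Foxo1 at 340 ± 4.85 and 304 ± 22.3 CPM (-0.16, adjusted p = 0.230). Batf passed in 3 of 18 alternatives and Foxo1 in 0 of 18.

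**Figure D5:**
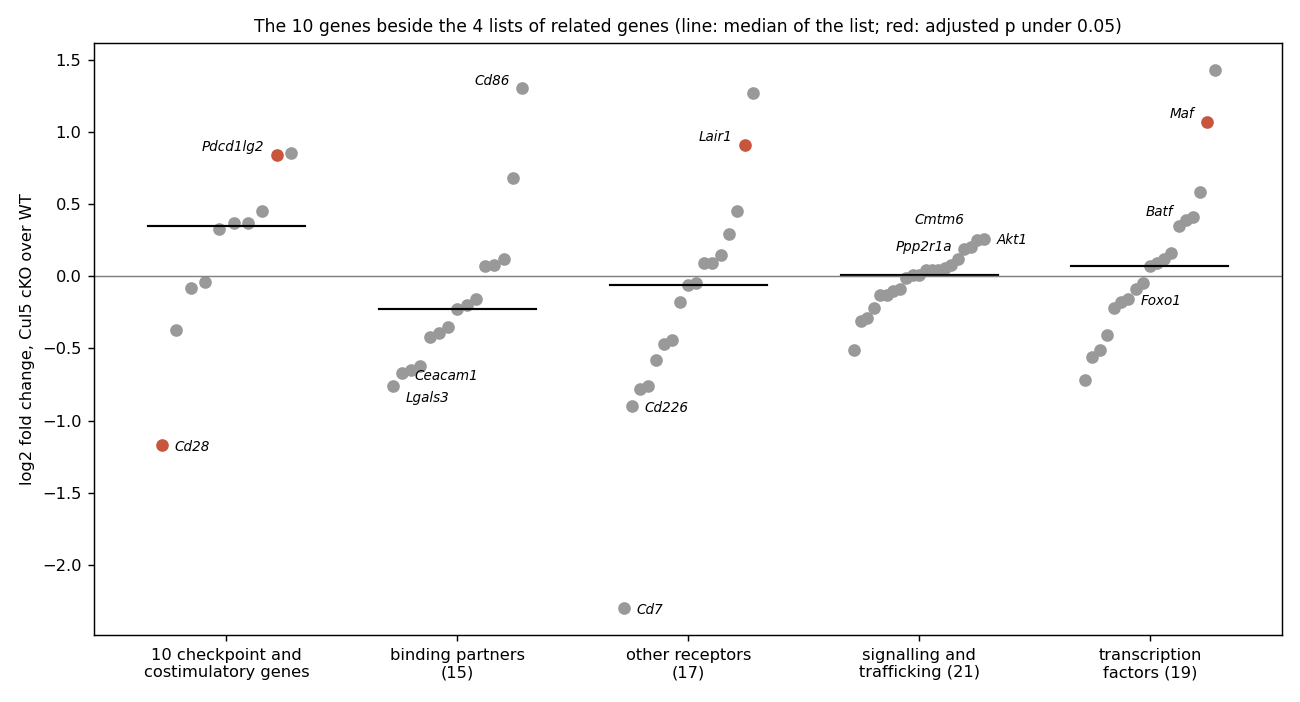
Log2 fold change (Cul5 cKO over WT, y axis) of each tested gene in the 10 checkpoint and costimulatory genes and the 4 lists, ordered by value within a list, with the list's median as a line and genes with an adjusted p under 0.05 in red. Cd28 is the red point below 0, at -1.17, and Pdcd1lg2, Lair1 and Maf are the red points above it.

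The 5 genes whose pattern was most like that of Pdcd1lg2, by Pearson's r of log2(CPM + 0.1) over the 6 samples among 8686 genes with a mean of at least 10 CPM, were Anxa3 (r = 0.997), Fermt3 (0.994), Odc1 (0.994), Ybx3 (0.993) and Sh3bp2 (0.993). The 6 points of each share libraries and genotypes, so these are descriptions. Anxa3, an annexin gene, was at 19.5, 32.3 and 24.3 in WT and 50.9, 66.3 and 74.9 CPM in Cul5 cKO, and was called (log2 fold change 1.33, edgeR, adjusted p = 0.0404), while the other 4 had log2 fold changes between 0.19 and 0.39 and were not.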

How the data were processed

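RNA of 3 WT and 3 Cul5 cKO Th9 cultures was sequenced by the authors as poly-A libraries in single-end reads. For GRCm38 (Ensembl), kallisto 0.46.2 gave transcript abundances, which edgeR 3.34.0 then normalized. The estimated counts deposited by the authors are reads per transcript, not normalized, and a read that matches several transcripts is divided between them. The TPM values deposited by the authors are scaled to transcript length. The log2 CPM values of the authors' gene-level table are TMM-normalized. Its fold changes and unadjusted p-values, computed by the authors between the genotypes, were not used.

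GENCODE vM21 supplied the gene of each transcript (116640 of 119414, 97.7%). Counts were summed by gene, rounded and fitted in R 4.3.3 with edgeR 4.0.16 (default expression filter, TMM, quasi-likelihood test, Benjamini-Hochberg adjustment over all 12925 genes tested, called at an adjusted p under 0.05), with genotype as the only term. The fit was tested on simulated counts. Levels are CPM on TMM-adjusted library sizes. A floor is 3 counts and covers counting error only. The exact permutation test is two-sided. The genes and the 4 lists were chosen with earlier results of these data known. The text names all 10 genes, Cul5, list genes that were called or had the 3 smallest p in a list, the neighbours of the gene clusters, and the 5 genes most like Pdcd1lg2. The list gene Nr4a1 and the markers Cd22, Itgax and Lyz2 were named after their values were seen. Alternatives, run with limma 3.58.1 and DESeq2 1.42.0 besides edgeR, changed the normalization, filter, tool, unit, pseudocount, threshold and depth, left out samples, or used a replicate term. Those for named list genes were chosen after seeing the data. Promoters came from RefSeq (GRCm38.p6). Python 3.11.15, numpy 2.4.6, pandas 2.3.3 and scipy 1.17.1 were used. Of the lists of other cells, NK cell markers summed to at most 0.311 CPM, erythroid markers to at most 2.69 CPM and CD8 T cell markers to 4.30 to 11.7 CPM, highest in Cul5 cKO replicate 3. Th9 markers (4 genes) summed to 1117 to 1472 CPM in WT and 1693 to 2493 CPM in Cul5 cKO.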

Additional observations from a re-analysis of the deposited data

How the results depend on the processing

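Over 18 alternatives each, Pdcd1lg2 stayed between 0.70 and 0.96 on the log2 scale and was called in 11 (adjusted p 1.38e-06 to 0.141), and Cd28 stayed between -1.31 and -1.08 and was called in 12 (2.97e-11 to 0.136). Of the 10 genes, 4 were called with a term for replicate 1, 1 with limma on the authors' log2 CPM, 0 with limma on log2(TPM + 1) or log2(TPM + 0.1), and 0 to 2 with a sample left out (0 when Cul5 cKO replicate 3 or either of WT replicates 2 and 3 was left out). limma on these TPM gave Pdcd1lg2 adjusted p of 0.0773 and 0.0711 and Cd28 0.0570 and 0.0552. All genes called numbered 228 of 22400 tested with no filter and 1153 of 13055 in replicates 2 and 3 alone. They were 1688 of 12925 with a term for replicate 1, 693 of 12925 with DESeq2 and 60 of 13019 with counts scaled from TPM. With limma they were 42 of 11242 on the authors' log2 CPM and 27 and 30 of 12925 on the TPM scales. At an unadjusted p under 0.05 they were 2753 of 12925, and with a sample left out 2 to 316. The cause of these differences in number was not tested. The unadjusted threshold called the same number of the 10 genes, 2, beside 21.3% of all genes tested, which is near the same share. In the 4 lists (72 genes tested) 13 were called in replicates 2 and 3 alone, beside 8.83% of all genes. A term for replicate 1 called 22 (beside 13.1%) and DESeq2 8 (beside 5.36%). In these lists 0 were called with limma on either TPM scale, and 0 to 5 with a sample left out. Transcripts called were 2 with at least 10 counts in every sample and 376 with DESeq2, of which 2 belong to the 10 genes, and 0 with any sample left out. With a sample left out Icos ranged from -0.28 to 0.07, Btla from -0.40 to 0.33 and Havcr2 from -0.12 to 1.36. Btla was 0.04 with counts scaled from TPM, and Cd226 was 0.09 in the authors' log2 CPM. Havcr2 was not fitted with at least 10 counts in every sample or after thinning to the depth of WT replicate 3, where 9 of the 10 genes were tested. Havcr2 and Tigit rest on few counts, 6 and 10.3 in WT replicate 3, the shallowest library.

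Samples of the same replicate number shared deviations from their genotype's mean with correlations of 0.37, 0.21 and 0.02 for replicates 1, 2 and 3 over 12925 genes. WT replicate 3 correlated best with Cul5 cKO replicate 2 (0.09), and Cul5 cKO replicate 3 best with WT replicate 2 (0.20), so the numbers were not taken to pair the samples. With the replicate number as a block, 848 of all 12925 genes tested, 3 of the 10 genes and 14 of 72 list genes were called. Ctla4 was the one added among the 10 (-0.37, edgeR, adjusted p = 0.0229), and 0 of 39572 transcripts were called.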
